A study of Mus musculus with 12 samples.

Results

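NF-kB is a family of dimeric transcription factors that drives the inflammatory programme of macrophages. The genes described here are 10 of its components and feedback targets, taken by name. They comprise the subunit genes Nfkb1, Nfkb2, Rel and Relb, the inhibitor genes Nfkbia, Nfkbie and Nfkbiz, the feedback gene Tnfaip3, and the target genes Tnfaip2 and Icam1. Every probe annotated to one of these symbols was taken, which gave 12 of the 25697 probes and 9 of the 10 genes. Nfkb1 had no probe in the annotation used and is not analysed here. The probe of Relb and 1 of the 2 probes of Nfkbie were detected on none of the 12 arrays. A gene was tested where a probe had a detection p-value under 0.05 on at least 3 arrays, and 8 of the 10 genes passed, among 6563 genes tested.

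The arrays held RNA of alveolar macrophages, which patrol the air side of the lung, from 4 groups with 3 samples each. Knockout M2 cells (LMP7ko_M2) and wild-type M2 cells (WT_M2) had received 20 ng/ml of the cytokine IL-4 (interleukin-4), for at most 24 h, and knockout M0 cells (LMP7ko_M0) and wild-type M0 cells (WT_M0) were left unpolarized. All mice were C57Bl/6J, 8 to 12 weeks old and specific pathogen-free, and the lungs were washed 8 times with 1 ml. Lmp7 is the protein name of Psmb8, an inducible catalytic subunit of the immunoproteasome. The labels give the knockout by that gene name and the strain alone, and do not tell whether 1 sample is 1 animal or a pool. The p-values therefore rest on a spread among samples that may be partly or wholly technical. The array columns name the group and no replicate number, so the arrays of a group are called a, b and c.

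In resting cells the NF-kB dimers are held in the cytoplasm by inhibitor proteins of the IkB family. Receptor signals activate a kinase complex that marks the inhibitor for destruction by the proteasome, after which the dimer enters the nucleus. Nfkb1 and Nfkb2 encode precursors from which the proteasome releases the mature DNA-binding subunits, so both the inhibitor Nfkbia and the precursor Nfkb1 are known proteasome substrates. Among the first genes that NF-kB induces are its own inhibitors and Tnfaip3, whose product A20 edits ubiquitin chains on signalling proteins, and these close a negative feedback loop. IL-4 acts through another factor, STAT6, and in macrophages is known for the alternative (M2) state rather than for NF-kB activation. RNA levels do not report the amount, the location or the turnover of these proteins, and in bulk samples fewer cells of a type and less RNA per cell cannot be told apart.

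The promoters of 7 members had an entry in the RefSeq tables (mouse build GRCm38.p6), and the 250 bases before the transcription start were searched on both strands. The NF-kB consensus matched in 5 of these 7 members, namely Tnfaip3, Rel, Nfkbia, Nfkbie and Nfkb2. It matched in 3.9% of the 32851 promoter windows of the table. The letters TTCNNNGAA, of the kind that STAT factors are known to bind, were found in Icam1 and Nfkb2 and in 7.02% of all windows. Tnfaip2 had neither match in its window. A gene with several starts had several windows and was counted once. The sequences shown are those of the classical feedback inhibitor and of the 3 genes whose IL-4 responses had a common direction. Capitals mark the NF-kB consensus matches.
Nfkbia: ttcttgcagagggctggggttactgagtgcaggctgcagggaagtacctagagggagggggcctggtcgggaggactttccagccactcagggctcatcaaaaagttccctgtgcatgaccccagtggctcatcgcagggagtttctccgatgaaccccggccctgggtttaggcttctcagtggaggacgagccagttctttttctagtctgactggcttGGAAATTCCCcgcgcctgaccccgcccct
Nfkbie: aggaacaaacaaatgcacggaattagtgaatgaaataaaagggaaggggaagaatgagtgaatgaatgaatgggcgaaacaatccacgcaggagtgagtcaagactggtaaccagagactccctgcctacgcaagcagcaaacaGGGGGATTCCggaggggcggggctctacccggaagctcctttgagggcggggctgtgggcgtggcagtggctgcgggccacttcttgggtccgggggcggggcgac
Tnfaip3: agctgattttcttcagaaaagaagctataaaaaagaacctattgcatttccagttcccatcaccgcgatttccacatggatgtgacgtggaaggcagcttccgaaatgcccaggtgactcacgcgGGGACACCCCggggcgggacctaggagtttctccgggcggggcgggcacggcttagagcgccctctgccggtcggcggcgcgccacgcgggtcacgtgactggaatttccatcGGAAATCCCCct
Icam1: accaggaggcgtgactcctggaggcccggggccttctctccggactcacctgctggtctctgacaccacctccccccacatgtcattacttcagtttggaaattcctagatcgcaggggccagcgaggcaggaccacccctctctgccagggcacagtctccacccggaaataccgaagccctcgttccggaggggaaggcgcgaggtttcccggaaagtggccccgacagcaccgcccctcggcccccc
The Nfkbia sequence is chr12:55492648-55492897 on the minus strand, and its match lies 29 to 20 bases before the start. The Nfkbie sequence is chr17:45555450-45555699 on the plus strand, with the match 106 to 97 bases before the start. The Tnfaip3 sequence is chr10:19015411-19015660 on the minus strand, with matches 125 to 116 and 12 to 3 bases before the start. The Icam1 sequence is chr9:21015690-21015939 on the plus strand and holds no consensus match in this window. A match describes the letters and is no measure of binding. Only exact matches were counted, so a window without one, such as that of Icam1 or Tnfaip2, may still hold an NF-kB site.

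The arrays were checked before the results. The Psmb8 probe was undetected on all 6 knockout arrays and detected on all 6 wild-type arrays, so that knockout M2 lay below wild-type M2 by at least 3.32-fold (limma, adjusted p = 3.13e-05) and knockout M0 below wild-type M0 by at least 3.43-fold (adjusted p = 1.84e-05). Of 12 alveolar macrophage markers, 10 had a probe and 7 were detected on at least 3 arrays. Itgax, Marco, Pparg, Mrc1, Fabp4 and Chil3 were detected on all 12 arrays, whereas Car4 and Fabp1 were detected on none. The share of probes detected ran from 25.5% to 34.2% per array, and the 3 lowest were knockout M2 array a, knockout M0 array a and wild-type M0 array a.

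IL-4 changed 4 of the 8 tested members in each genotype, and the direction split them in the same way. Nfkbie, Tnfaip3 and Icam1 rose with IL-4 in both genotypes, and Tnfaip2 fell. Nfkb2, Rel, Nfkbia and Nfkbiz did not pass the test in either genotype. In knockout cells 3 members rose and 1 fell, where 21.6% of all genes tested passed, 10.3% as higher and 11.3% as lower. In wild-type cells 3 members also rose and 1 fell, where 16.1% of all genes passed, 8.44% as higher and 7.62% as lower. The median IL-4 difference of the 8 members was -0.06 in knockout cells and 0.34 in wild-type cells on the log2 scale, and over all genes it was 0.0036 in knockout cells and 0.0030 in wild-type cells.

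All 8 members had lower levels in knockout M2 cells than in wild-type M2 cells by the group mean. However, the sign turned in 3 of 24 alternatives for Nfkbiz (up to 0.04) and in 2 of 24 for Rel (up to 0.09). Nfkbiz was detected on 0 of 3 arrays in each M2 group. Nfkbia was detected on 0 of 3 knockout M2 and 1 of 3 wild-type M2 arrays. The direction in Nfkbiz and Nfkbia thus rests largely on values below detection. Tnfaip2 and Nfkbie, 2 of the 8, passed the test. In that comparison 2.04% of all genes passed, 1.37% as lower. The M2 groups did not overlap for 5 members, all lower in the knockout (Tnfaip2, Nfkbie, Nfkb2, Tnfaip3 and Icam1), and this held for 10.3% of all genes. In M0 cells no member passed the genotype test with limma, 1 (Nfkbie) had an unadjusted p under 0.05 and no member had groups that did not overlap. Over all genes 0.686% passed in M0 cells, 9.86% had an unadjusted p under 0.05 and 14.8% had groups that did not overlap. The median genotype difference of the 8 members was -0.47 in M2 cells and -0.21 in M0 cells, and over all genes it was -0.0094 in M2 cells and 0.0003 in M0 cells (log2, knockout minus wild type). The IL-4 and genotype comparisons share groups, so they are not independent of each other.

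**Figure D1:**
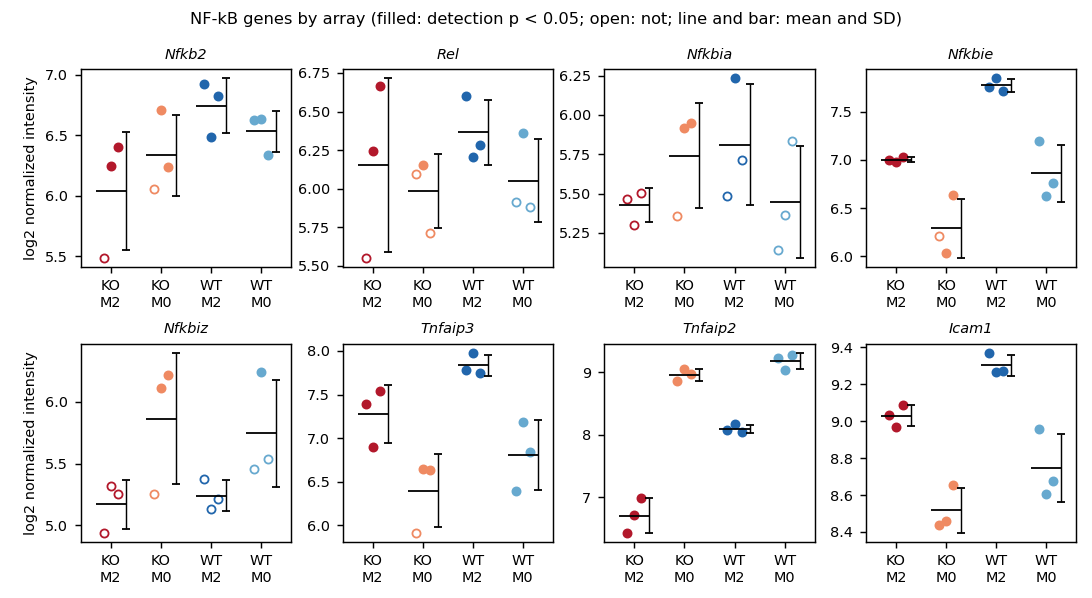
Normalized level (log2 intensity, vertical axis) of each of the 8 tested members on each of the 12 arrays, in knockout M2, knockout M0, wild-type M2 and wild-type M0 cells. Filled points had a detection p-value under 0.05; lines and bars give the mean and SD of 3 arrays. Tnfaip2 is high in M0 cells and lowest in knockout M2 cells, while Nfkbie, Tnfaip3 and Icam1 are highest in wild-type M2 cells.

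Of the subunit genes, Nfkb2 encodes the precursor of the alternative NF-kB pathway. It lay at 5.49, 6.24 and 6.40 in knockout M2 cells, at 6.06, 6.71 and 6.24 in knockout M0 cells, at 6.92, 6.49 and 6.82 in wild-type M2 cells and at 6.62, 6.64 and 6.34 in wild-type M0 cells (log2 normalized intensity, arrays a, b and c). The knockout M2 arrays all lay below the wild-type M2 arrays, and the M0 groups overlapped. The M2 genotype difference was -0.70 ± 0.24 (SE, n = 3 per group) and did not pass the limma test (adjusted p = 0.215). The lowest value came from knockout M2 array a, the array with the smallest share of detected probes, and over the 12 arrays Nfkb2 correlated with that share (Pearson r = 0.52, a description). Without knockout M2 array a the M2 genotype difference was -0.42. Over 24 alternatives it ran from -0.88 to -0.42 (limma, adjusted p from 0.153 to 0.488). Among these were that share as a covariate and a fit without the 3 arrays of lowest detected share. The part of array quality was not tested further. The IL-4 difference was -0.29 ± 0.24 in knockout cells (adjusted p = 0.452) and 0.21 ± 0.24 in wild-type cells (adjusted p = 0.633).

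Rel encodes c-Rel, a subunit with its own transactivation domain. It was detected on 7 of the 12 arrays, at 5.55, 6.24 and 6.67 in knockout M2 cells, 6.10, 6.15 and 5.71 in knockout M0 cells, 6.60, 6.21 and 6.29 in wild-type M2 cells and 5.92, 6.36 and 5.88 in wild-type M0 cells. All 4 groups overlapped. The genotype difference was -0.21 ± 0.25 in M2 cells (limma, adjusted p = 0.843) and -0.07 ± 0.25 in M0 cells (adjusted p = 0.963). Relb, the partner of the Nfkb2 product, stayed between 5.05 and 5.41 on the 12 arrays, where a signal counts as not well above background, and was not tested.

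Nfkbie encodes IkB-epsilon, an inhibitor that NF-kB itself induces. Its detected probe lay at 7.0, 6.98 and 7.03 in knockout M2 cells and at 6.21, 6.04 and 6.63 in knockout M0 cells. It lay at 7.76, 7.85 and 7.71 in wild-type M2 cells and at 7.20, 6.62 and 6.76 in wild-type M0 cells. In each genotype the M2 arrays all lay above the M0 arrays, and the knockout M2 arrays lay below the wild-type M2 arrays and overlapped the wild-type M0 arrays. IL-4 raised Nfkbie by 0.71 ± 0.17 in knockout cells (limma, adjusted p = 0.0117) and by 0.91 ± 0.17 in wild-type cells (adjusted p = 0.00423). The knockout response was lost without knockout M0 array b (0.58, adjusted p = 0.0505), and its adjusted p ran from 0.00443 to 0.0505 over 24 alternatives.

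The Nfkbie level in knockout M2 cells was 58.6% of that in wild-type M2 cells, a log2 difference of -0.77 with a 95% interval of -1.14 to -0.40 (limma, adjusted p = 0.0459). This call was close to the threshold and was lost in 12 of 24 alternatives, over which the adjusted p ran from 0.0217 to 0.169 and the difference from -0.85 to -0.54. Leaving out any 1 of the 6 M2 arrays ended it, as did leaving out knockout M0 array a or wild-type M0 array c, with differences of -0.80 to -0.73. In M0 cells the difference was -0.57 ± 0.17 (adjusted p = 0.239), and the groups overlapped. Averaged over M0 and M2 cells the difference was -0.67 ± 0.12 (adjusted p = 0.0116), which passed in 22 of 23 alternatives. Nfkbie lies on chromosome 17 (45555700 to 45563169), as does the knocked-out gene Psmb8 (34198195 to 34201454). The part of this shared chromosome in the genotype difference of Nfkbie was not tested.

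Nfkbia encodes IkB-alpha, the inhibitor whose loss by the proteasome opens the canonical pathway. It was detected on 3 arrays, knockout M0 arrays b and c and wild-type M2 array b. Its values were 5.47, 5.30 and 5.51 in knockout M2 cells, 5.36, 5.91 and 5.95 in knockout M0 cells, 5.48, 6.23 and 5.72 in wild-type M2 cells and 5.14, 5.37 and 5.83 in wild-type M0 cells. The groups overlapped in all 4 pairwise comparisons of the design, and no difference passed the test. The IL-4 difference was -0.32 ± 0.23 in knockout cells (limma, adjusted p = 0.390) and 0.36 ± 0.23 in wild-type cells (adjusted p = 0.345). The part of the low signal of this probe was not tested.

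Nfkbiz encodes IkB-zeta, an atypical nuclear member of the inhibitor family that can also act as a coactivator. It was detected on 3 arrays, all of M0 cells, knockout arrays b and c and wild-type array b. It lay at 4.94, 5.32 and 5.25 in knockout M2 cells, 5.25, 6.12 and 6.22 in knockout M0 cells, 5.38, 5.13 and 5.21 in wild-type M2 cells and 5.46, 6.24 and 5.53 in wild-type M0 cells. No M2 array reached the detection threshold, the 3 detected arrays stood apart from the other M0 arrays, and in wild-type cells the M2 arrays all lay below the M0 arrays. The IL-4 difference was -0.69 ± 0.26 in knockout cells (limma, adjusted p = 0.0887) and -0.50 ± 0.26 in wild-type cells (adjusted p = 0.240). The first passed in 5 of 24 alternatives, among them the authors' processed values (log2 difference -0.61, adjusted p = 0.0499, and 0.0242 with the replicate block) and the fit without knockout M0 array a (-1.0, adjusted p = 0.0112), and over the alternatives its adjusted p ran from 0.0112 to 0.269. Nfkbiz followed the share of detected probes more closely than the other members did (r = 0.67 over 12 arrays, a description). With that share as a covariate the knockout IL-4 difference was -0.58 (limma, adjusted p = 0.0371). Without the 3 arrays of lowest detected share it was -0.88 (adjusted p = 0.024). Both fits are among the 5 that passed, and the part of array quality was not tested further.

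Tnfaip3 encodes A20, the ubiquitin-editing enzyme that ends NF-kB signalling downstream of tumour necrosis factor and Toll-like receptors. It lay at 7.39, 6.90 and 7.54 in knockout M2 cells and at 5.91, 6.65 and 6.63 in knockout M0 cells. It lay at 7.78, 7.97 and 7.74 in wild-type M2 cells and at 6.39, 7.19 and 6.84 in wild-type M0 cells. The M2 arrays lay above the M0 arrays in each genotype, and the lowest array of each M0 group was array a, 1 of the 3 arrays with the fewest detected probes. IL-4 raised Tnfaip3 to 184% of the M0 level in knockout cells (log2 0.88 ± 0.25, limma, adjusted p = 0.0265) and to 204% in wild-type cells (1.03 ± 0.25, adjusted p = 0.0165). The knockout response was lost in 7 of 24 alternatives. Without knockout M0 array a it was 0.64 (adjusted p = 0.0896), and it was also lost without knockout M2 array a (0.82, adjusted p = 0.0761) and without knockout M2 array c (0.75, adjusted p = 0.0951). The other 4 losses were median scaling (adjusted p = 0.0584), no filter on dim probes (0.0552), leaving out the 3 arrays of lowest detected share (0.103) and a fit of only the 2 groups (0.0618). The wild-type response was lost without wild-type M0 array a (0.82, adjusted p = 0.0570) and without wild-type M2 array b (0.96, adjusted p = 0.0624). Over all alternatives the adjusted p ran from 0.00916 to 0.103 in knockout cells and from 0.00519 to 0.0624 in wild-type cells.

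Tnfaip3 in knockout M2 cells was 68.1% of wild-type M2 cells, with no overlap of the arrays, and the difference of -0.56 ± 0.25 did not pass (limma, adjusted p = 0.401). In M0 cells the difference was -0.41 ± 0.25 (adjusted p = 0.681) with overlapping arrays.

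Icam1 encodes an adhesion receptor for leukocyte integrins and is a textbook NF-kB target. It was detected on all 12 arrays, at 9.03, 8.97 and 9.09 in knockout M2 cells, 8.44, 8.46 and 8.66 in knockout M0 cells, 9.37, 9.27 and 9.27 in wild-type M2 cells and 8.96, 8.61 and 8.68 in wild-type M0 cells. The M2 arrays lay above the M0 arrays in each genotype, by small amounts. IL-4 raised it to 143% of the M0 level in knockout cells (log2 0.51 ± 0.11, limma, adjusted p = 0.00791) and to 147% in wild-type cells (0.56 ± 0.11, adjusted p = 0.00727). When arrays were scaled to a common median, and not quantile normalized, the response was 0.49 in knockout cells (adjusted p = 0.131) and 0.61 in wild-type cells (adjusted p = 0.0707). Over all alternatives the adjusted p ran from 0.00133 to 0.131 in knockout cells and from 0.00115 to 0.0707 in wild-type cells. The genotype difference was -0.27 ± 0.11 in M2 cells without overlap (adjusted p = 0.349) and -0.23 ± 0.11 in M0 cells with overlap (adjusted p = 0.578).

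**Figure D2:**
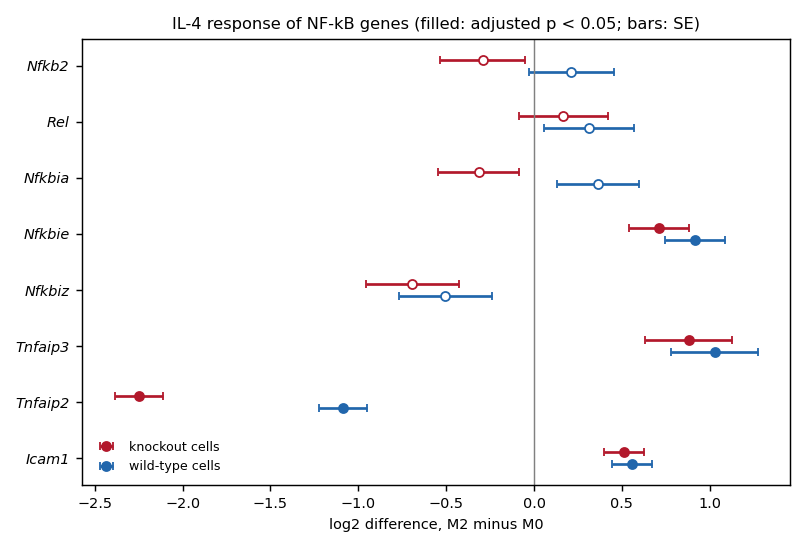
IL-4 response (log2 difference, M2 minus M0, horizontal axis) of the 8 tested members in knockout and wild-type cells. Points are limma estimates, bars are SE with 3 arrays per group, and filled points had an adjusted p under 0.05. Nfkbie, Tnfaip3 and Icam1 lie right of 0 and Tnfaip2 left of 0 in both genotypes, with Tnfaip2 at -2.25 in knockout and -1.09 in wild-type cells.

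By group mean, Nfkbie, Tnfaip3 and Icam1 had the same order of groups, namely wild-type M2, knockout M2, wild-type M0 and knockout M0 from high to low. The arrays of knockout M2 and wild-type M2 did not overlap for the 3 genes, and those of knockout M0 and wild-type M0 did. Between knockout M2 and wild-type M0, the middle neighbours, the arrays overlapped for Nfkbie and Tnfaip3 and not for Icam1. Across the 12 arrays Nfkbie and Icam1 had a Pearson correlation of 0.96, and 0.88 after the group means were removed. Tnfaip3 correlated with Nfkbie at 0.79 and with Icam1 at 0.82, and after the group means were removed at -0.24 with Nfkbie and -0.17 with Icam1. The 12 arrays share a normalization and the correlations are descriptions.

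Tnfaip2 is a gene first found as induced by tumour necrosis factor and is used as an NF-kB target in myeloid cells. It went against the other called members and had the largest IL-4 difference among the 8 in each genotype. Its brightest probe lay at 6.43, 6.71 and 6.98 in knockout M2 cells and at 8.85, 9.05 and 8.97 in knockout M0 cells. It lay at 8.07, 8.17 and 8.04 in wild-type M2 cells and at 9.22, 9.04 and 9.28 in wild-type M0 cells. The M2 arrays lay below the M0 arrays in each genotype, and the knockout M2 arrays lay more than 1 log2 unit below all other arrays, while the M0 groups overlapped. Before normalization the same probe had deposited intensities of 76, 100 and 96 in knockout M2 cells, 398, 534 and 390 in knockout M0 cells, 307, 357 and 268 in wild-type M2 cells and 616, 521 and 545 in wild-type M0 cells.

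With IL-4, Tnfaip2 fell to 21% of the M0 level in knockout cells (log2 -2.25 ± 0.14, limma, adjusted p = 1.3e-06) and to 47.1% in wild-type cells (-1.09 ± 0.14, adjusted p = 0.000397). The order of the groups was wild-type M0, knockout M0, wild-type M2 and knockout M2 from high to low. The neighbours in M0 cells did not differ beyond their spread, with a knockout minus wild-type difference of -0.22 ± 0.14 (adjusted p = 0.683). In M2 cells the knockout level was 38.2% of wild type, a log2 difference of -1.39 with a 95% interval of -1.69 to -1.08 (adjusted p = 0.000407). Both IL-4 responses and the M2 genotype difference passed in all 24 alternatives, leaving out each array included, and the M2 difference ran from -1.52 to -0.98.

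By the brightest probe, the IL-4 response of Tnfaip2 was lower in knockout than in wild-type cells by 1.16 ± 0.19 log2 units (difference of differences -1.16, 95% interval -1.59 to -0.74). This ranked 8 of 6563 genes by p-value, with an unadjusted limma p of 8.7e-05 and an adjusted p of 0.0714, so it did not pass. In the alternatives the adjusted p ran from 0.0355 to 0.370, and it passed in 3 of 23, which were cyclic loess normalization (0.0355), the mean of the kept probes of a gene (0.0410) and the fit without knockout M2 array c (0.0422). With no member past the threshold, 1 of the 8 (Tnfaip2) had an unadjusted p under 0.05, and over all genes 0.0762% passed and 6.61% had an unadjusted p under 0.05. The difference of responses was below 0 in all 8 members, at -0.68 ± 0.33 in Nfkbia (adjusted p = 0.780), at -0.50 ± 0.34 in Nfkb2 (adjusted p = 0.937) and between -0.20 and -0.04 in the other 5. Under alternatives its sign turned 2 times each in Tnfaip3 (up to 0.06), Icam1 (up to 0.03) and Rel (up to 0.28). The median was -0.20 over the 8 members and -0.02 over all genes. Nfkbia was detected on 0 of 3 arrays in knockout M2 cells and on 0 of 3 in wild-type M0 cells. Nfkbiz was detected on 0 of 3 arrays in each M2 group. The difference of responses in Nfkbia and Nfkbiz, and its sign, thus rests largely on values below detection.

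Tnfaip2 had 2 further kept probes, and they gave the same order of conditions at a lower signal. The middle probe lay at 5.32, 5.12 and 5.71 in knockout M2 cells, where it was undetected, at 7.93, 7.83 and 8.05 in knockout M0 cells, at 6.97, 7.01 and 6.81 in wild-type M2 cells and at 8.25, 7.79 and 8.13 in wild-type M0 cells. The dimmest probe lay at 5.77, 5.73 and 5.55 in knockout M2 cells, again undetected, at 7.60, 7.21 and 7.10 in knockout M0 cells, at 6.22, 6.30 and 6.31 in wild-type M2 cells and at 7.67, 7.31 and 7.30 in wild-type M0 cells. A probe undetected on every array of a group has only a bound there, taken against the lowest signal well above background. On that basis the middle probe was at least 3.54-fold lower and the dimmest at least 2.28-fold lower in knockout M2 than in knockout M0 cells. In knockout M2 against wild-type M2 cells they were at least 1.77-fold and at least 1.12-fold lower, with adjusted p over probes of 0.000717 and 0.0756. The difference of responses was -1.43 ± 0.23 for the middle and -0.47 ± 0.21 for the dimmest probe (limma, adjusted p over probes 0.0646 and 0.768). Averaged over M0 and M2, the genotype difference was -0.83 ± 0.12 and -0.36 ± 0.11 (adjusted p over probes 0.0028 and 0.114). These fitted values rest on knockout M2 arrays below detection. The probes thus differed on the M2 genotype call and on the averaged one. The wild-type IL-4 difference was -1.12 ± 0.17 and -1.15 ± 0.15, against -1.09 ± 0.14 for the brightest probe.

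**Figure D3:**
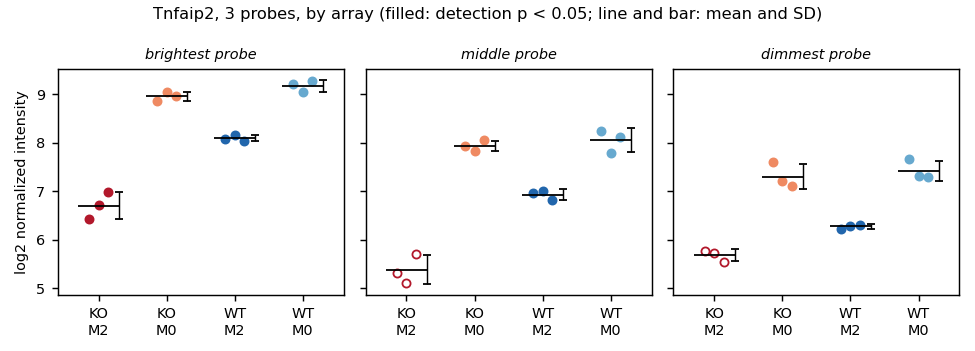
The 3 probes of Tnfaip2 (log2 normalized intensity, vertical axis) on each of the 12 arrays by group, from the brightest probe to the dimmest. Filled points had a detection p-value under 0.05, and lines and bars give the mean and SD of 3 arrays. Knockout M2 cells are the lowest group in each panel, and in the middle and dimmest panels their 3 arrays were undetected.

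Averaged over M0 and M2 cells, the genotype difference passed for Tnfaip2 by its brightest probe (-0.81 ± 0.10, limma, adjusted p = 0.00106) and for Nfkbie. Both were lower in the knockout. Over all genes 3.25% passed, 1.84% as lower. The average was -0.48 ± 0.18 in Tnfaip3 (adjusted p = 0.207), -0.45 ± 0.17 in Nfkb2 (adjusted p = 0.228) and -0.25 ± 0.08 in Icam1 (adjusted p = 0.146). In Rel, Nfkbia and Nfkbiz it lay between -0.14 and 0.02. The median of the 8 was -0.35, against -0.006 over all genes.

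**Figure D4:**
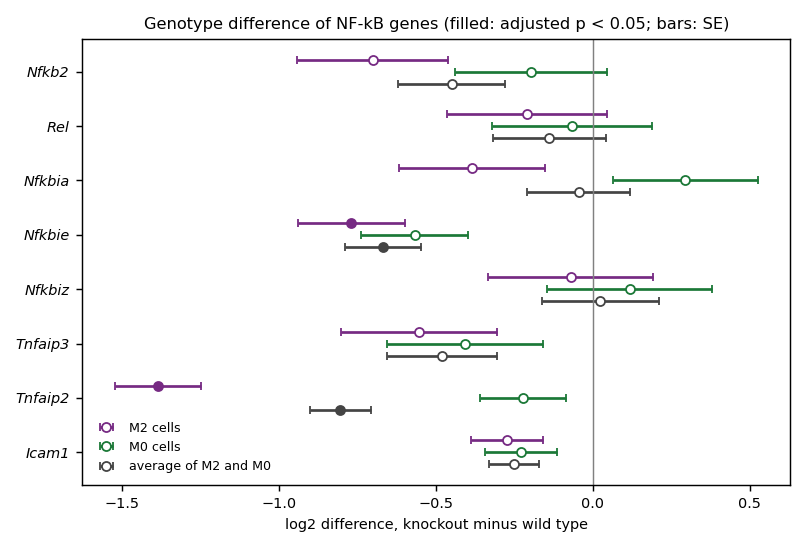
Genotype difference (log2, knockout minus wild type, horizontal axis) of the 8 tested members in M2 cells, in M0 cells and averaged over both. Points are limma estimates, bars are SE with 3 arrays per group, and filled points had an adjusted p under 0.05. The M2 points all lie left of 0 in this fit (Nfkbiz and Rel turn sign in some alternatives, and Nfkbiz was undetected on every M2 array). Tnfaip2 at -1.39 and Nfkbie at -0.77 are the only filled M2 points, and the average is filled for Tnfaip2 and Nfkbie alone.

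Of the markers listed for other cell types, Cxcr2 and Cdh1 moved with some of these results, while some others of the same lists did not or went the other way. Of 9 neutrophil markers 8 had a probe, 3 were detected on at least 3 arrays (S100a8, Cxcr2 and Camp), and S100a9, Retnlg, Mmp8 and Ngp were detected on none. Their summed linear level was 586 to 782 in knockout M2 cells against 394 to 478 in wild-type M2 cells, and 602 to 706 in knockout M0 cells against 460 to 482 in wild-type M0 cells. Cxcr2 averaged 8.33 in knockout M2 against 6.47 in wild-type M2 cells, and 6.86 in knockout M0 against 5.32 in wild-type M0 cells (log2). S100a8 averaged 6.76 in knockout M2 against 6.59 in wild-type M2 cells, and 8.17 in knockout M0 against 7.62 in wild-type M0 cells. Camp averaged 5.86 in knockout M2 against 6.09 in wild-type M2 cells, and 5.77 in knockout M0 against 5.53 in wild-type M0 cells. Of 6 epithelial markers with a probe 3 (Cdh1, Sftpc and Scgb1a1) were detected on at least 3 arrays, and Krt8 and Krt18 on none. The sum of the 6 was 2893 to 3457 in knockout M2 cells against 1256 to 1339 in knockout M0 cells, and 3058 to 3287 in wild-type M2 cells against 1433 to 1704 in wild-type M0 cells. Cdh1 averaged 11.53 in knockout M2 against 10.06 in knockout M0 cells, and 11.53 in wild-type M2 against 10.27 in wild-type M0 cells. Sftpc averaged 6.07 in knockout M2 against 5.93 in knockout M0 cells, and 6.06 in wild-type M2 against 6.09 in wild-type M0 cells. Scgb1a1 was lower in M2 cells, at 5.46 against 5.69 in knockout M0 cells and at 5.66 against 6.47 in wild-type M0 cells. In M2 cells the higher neutrophil sum of the knockout thus came with Cxcr2, beside the lower Tnfaip2 and Nfkbie, and the higher epithelial sum with IL-4 came with Cdh1. The part of either in these results was not tested. The macrophage marker sum itself was 15670 to 15890 in knockout M2 cells against 9539 to 10190 in knockout M0 cells, and 15650 to 16840 in wild-type M2 cells against 10150 to 10400 in wild-type M0 cells. Chil3 was higher with IL-4, at 13.2 in knockout M2 against 11.7 in knockout M0 cells and at 13.17 in wild-type M2 against 11.54 in wild-type M0 cells. Marco was lower with IL-4, at 8.71 in knockout M2 against 9.67 in knockout M0 cells and at 9.85 in wild-type M2 against 10.94 in wild-type M0 cells. Of monocyte, T cell and B cell markers none was detected on 3 or more arrays, and of the NK cell, dendritic cell, endothelial and eosinophil lists 1 marker each was.

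The other genes of the pathway were taken from 5 lists. Of 6 further subunits and inhibitors 4 were tested and none passed in the 6 comparisons with limma, with at most 1 at an unadjusted p under 0.05 in a comparison. Over all genes that unadjusted share was 32.9% for IL-4 in knockout cells, 28.4% for IL-4 in wild-type cells, 12.1% for genotype in M2 cells, 9.86% in M0 cells, 15% for their average and 6.61% for the difference of responses. Rela, the main transactivating subunit, was detected on all 12 arrays and had an IL-4 difference of -0.29 ± 0.12 in knockout cells (adjusted p = 0.106) and -0.23 ± 0.12 in wild-type cells (adjusted p = 0.213). Of 13 genes of the IkB kinase complex and the kinases before it 9 were tested and none passed in the 6 comparisons, again with at most 1 at an unadjusted p under 0.05. The median IL-4 difference was -0.10 in knockout cells and 0.14 in wild-type cells for the 4 subunits and inhibitors, and -0.25 in knockout cells and -0.07 in wild-type cells for the 9 kinase genes. Ikbkg, the regulatory subunit of the kinase complex, had -0.35 ± 0.23 with IL-4 in knockout cells (adjusted p = 0.334) and -0.07 ± 0.23 in wild-type cells (adjusted p = 0.894). The catalytic subunit Ikbkb, detected on 3 arrays, had -0.25 ± 0.20 in knockout cells (adjusted p = 0.438) and -0.24 ± 0.20 in wild-type cells (adjusted p = 0.499). Chuk and Tnf were not among the genes tested.

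Of 26 receptors and adaptors that feed NF-kB 15 were tested. With IL-4, 5 passed in knockout cells, 2 higher and 3 lower, and 4 passed in wild-type cells, 3 higher and 1 lower, against 21.6% and 16.1% of all genes. The median of the 15 was 0.09 in knockout cells and -0.03 in wild-type cells. Il1r1, the signalling receptor for interleukin-1, rose by 2.26 ± 0.12 in knockout cells (limma, adjusted p = 2.71e-07) and by 1.97 ± 0.12 in wild-type cells (adjusted p = 1.55e-06). Il1r1 was also higher in knockout M2 than in wild-type M2 cells, by 0.63 ± 0.12 (adjusted p = 0.0193). Tlr4, the receptor for bacterial lipopolysaccharide, rose by 0.64 ± 0.12 in knockout cells and by 0.62 ± 0.12 in wild-type cells. Tnfrsf1b, a receptor for tumour necrosis factor, fell by 0.97 ± 0.15 in knockout cells and by 0.92 ± 0.15 in wild-type cells. Irak3, an inhibitor of the Toll-like receptor pathway, fell by 0.72 ± 0.20 in knockout cells (adjusted p = 0.0275), and it had -0.50 ± 0.20 in wild-type cells (adjusted p = 0.132). Malt1, the paracaspase that cleaves A20, rose by 0.52 ± 0.14 in wild-type cells (adjusted p = 0.0254), and had 0.28 ± 0.14 in knockout cells (adjusted p = 0.184). Its partner Bcl10 fell by 0.30 ± 0.09 with IL-4 in knockout cells (adjusted p = 0.0328) and was lower in knockout M2 than in wild-type M2 cells by 0.42 (-0.42 ± 0.09, adjusted p = 0.0369). The difference of responses passed for none of the 15, with 1 at an unadjusted p under 0.05.

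Of 18 genes of the ubiquitin machinery 9 were tested. With IL-4, 3 passed in knockout cells and none in wild-type cells, where 1 had an unadjusted p under 0.05, against 21.6% and 16.1% of all genes past the threshold. The median of the 9 was -0.20 in knockout cells and -0.05 in wild-type cells. Tnip1, which binds A20 and shares its inhibitory role, fell by 0.77 ± 0.22 in knockout cells (limma, adjusted p = 0.0277) and had -0.45 ± 0.22 in wild-type cells (adjusted p = 0.211). Rnf11, a further member of the A20 complex, fell by 0.67 ± 0.10 in knockout cells (adjusted p = 0.000591) and had -0.31 ± 0.10 in wild-type cells (adjusted p = 0.0531). Otulin, a linear ubiquitin protease, rose by 0.42 ± 0.11 in knockout cells (adjusted p = 0.0211) and had 0.13 ± 0.11 in wild-type cells (adjusted p = 0.518). The difference of responses passed for none of the 9, with 1 at an unadjusted p under 0.05. Averaged over M0 and M2, Tnip1 was lower in the knockout by 0.75 ± 0.16 log2 units (-0.75, adjusted p = 0.0235). Only 1 of the 3 knockout M2 arrays detected Tnip1.

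Of 42 other NF-kB targets 19 were tested. With IL-4, 8 passed in knockout cells, 5 higher and 3 lower, and 6 passed in wild-type cells, all higher, against 21.6% of all genes in knockout cells and 16.1% in wild-type cells. The median of the 19 was -0.11 in knockout cells and 0.07 in wild-type cells. Ier3, an early response gene, rose by 2.67 ± 0.17 in knockout cells (limma, adjusted p = 1.55e-06) and by 1.69 ± 0.17 in wild-type cells (adjusted p = 8.08e-05). The macrophage chemokine Ccl4 rose by 0.92 ± 0.26 in knockout cells (adjusted p = 0.0248) and by 2.59 ± 0.26 in wild-type cells (adjusted p = 8.0e-05), and Ccl3 rose by 0.78 ± 0.21 in knockout cells and by 1.51 ± 0.21 in wild-type cells. Il1b, the cytokine interleukin-1 beta, rose by 1.05 ± 0.13 in knockout cells (adjusted p = 0.000263), and in wild-type cells, where no M0 array detected it, it was at least 3.18-fold higher in M2 cells.

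The 3 other targets that fell in knockout cells moved in the direction of Tnfaip2. Clec4e, which encodes the pattern receptor Mincle, fell by 1.42 ± 0.15 in knockout cells (limma, adjusted p = 6.25e-05) and had -0.25 ± 0.15 in wild-type cells (adjusted p = 0.314). Ccrl2, a chemerin-binding receptor, fell by 1.13 ± 0.18 in knockout cells (adjusted p = 0.00121) and had -0.22 ± 0.18 in wild-type cells (adjusted p = 0.502). Clec4e and Ccrl2 were each detected on only 1 of the 3 knockout M2 arrays. Fth1, the ferritin heavy chain, named after its values were seen to complete the 3, fell by 0.43 ± 0.11 in knockout cells (adjusted p = 0.0192) and had -0.29 ± 0.11 in wild-type cells (adjusted p = 0.115). The difference of responses passed for none of the 19, with 6 at an unadjusted p under 0.05, and was -1.18 ± 0.21 in Clec4e (adjusted p = 0.0981) and -0.91 ± 0.26 in Ccrl2 (adjusted p = 0.436). It was -1.67 ± 0.36 in Ccl4 (adjusted p = 0.218) and -1.06 ± 0.19 in Il1b (adjusted p = 0.0995), in which the wild-type M0 level is below detection.

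In M2 cells the genotype difference passed for 2 of the 19 other targets, Ccl4 at -2.08 ± 0.26 (limma, adjusted p = 0.00190) and Clec4e at -1.85 ± 0.15 (adjusted p = 7.35e-05), both lower in the knockout as Tnfaip2 was. In M0 cells 1 passed, Il1b, which was at least 1.23-fold higher in the knockout (adjusted p = 0.0339). Averaged over both states 3 passed, 1 higher and 2 lower. Over all genes 2.04% passed in M2 cells, 0.686% in M0 cells, 3.25% for the average and 0.0762% for the difference of responses. Clec4e was at -1.26 ± 0.10 (adjusted p = 6.35e-05) and Ccl4 at -1.25 ± 0.18 (adjusted p = 0.00329). Cd83, a surface marker of activated antigen-presenting cells, was higher in the knockout by 0.75 ± 0.13 (adjusted p = 0.00721). No wild-type M2 array detected Cd83, so its fitted difference rests on values below detection there. The medians of the 19 were -0.22 in M2 cells and -0.09 in M0 cells. No list was chosen independently of these data, and the counts describe the named genes.

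**Figure D5:**
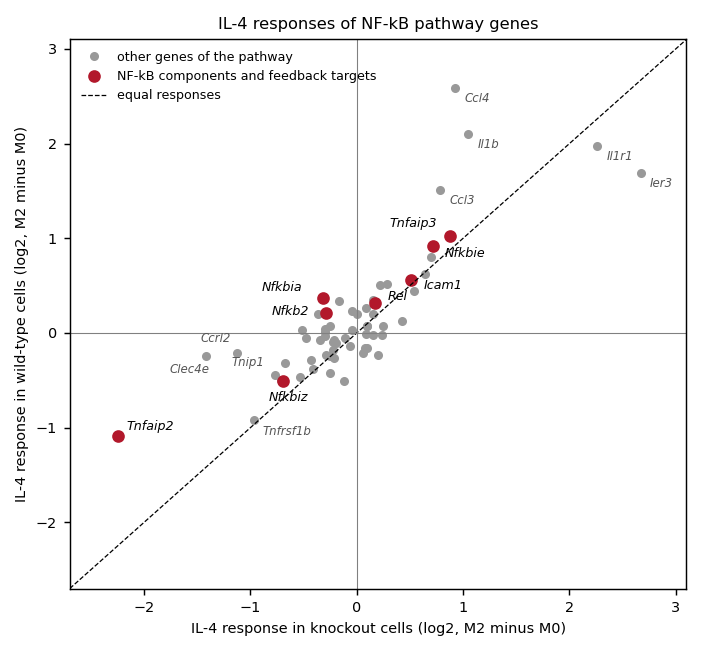
IL-4 response in knockout cells (horizontal axis) against that in wild-type cells (vertical axis), each as log2 difference of M2 minus M0, for the 8 tested members and the tested genes of the 5 pathway lists. The dashed line marks equal responses. Tnfaip2 lies left of the line at -2.25 in knockout and -1.09 in wild-type cells, Tnfaip3, Nfkbie and Icam1 lie close to it, and the fitted value of Il1b rests on wild-type M0 arrays below detection.

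The genes whose levels over the 12 arrays were most like those of Tnfaip2, by Pearson correlation among the 6563 genes, were Clec4d (r = 0.99), Rilpl2 (0.99), Calcrl (0.98), Pilra (0.98) and Pogk (0.98). Clec4d, a lectin receptor of myeloid cells, had an IL-4 difference of -3.24 in knockout cells and -1.50 in wild-type cells. Those most like Tnfaip3 were Acot7 (0.91), Fos (0.91), Uhrf1 (0.90), Plekho2 (0.90) and Ccnd2 (0.90). Fos, an immediate early transcription factor, had an IL-4 difference of 0.94 in knockout cells and 0.88 in wild-type cells. The correlations share 4 group means and 12 arrays and carry no test.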

How the data were processed

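Gene expression was measured on 12 Illumina arrays, 3 for each of 4 groups. Per the file headers, the first table holds not normalized intensities and detection p-values for each probe and array. Since the deposited intensities span -72 to 12659, some background subtraction preceded deposit. A second table gives intensities as processed by the authors, on a linear scale from 16 to 11275. The scanner software is not named in the labels or headers. The number of arrays limits the precision.

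The deposited intensities were background-corrected with normexp, using the deposited detection p-values (offset 16), quantile normalized and taken to log2 in limma 3.58.1 (R 4.3.3). A probe was kept with 1 gene symbol and a detection p-value under 0.05 on at least 3 arrays (8626 probes, 6563 genes). Of 25697 probes, 23978 had 1 symbol in GEO's platform annotation, 0 several and 1719 none. A gene is its kept probe of highest mean. All 4 groups entered 1 linear model with 6 contrasts. Benjamini-Hochberg adjustment ran over all genes tested, and the threshold was an adjusted p of 0.05. The fit was tested on simulated data with noise drawn independently for each array, a setting without the shared deviations of same-numbered arrays given below. Intervals are 95%.

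Members and lists were chosen with earlier results of these data known. All members are named, with, per list and comparison, up to 4 genes past the threshold of largest difference, Fth1, chosen after its values were seen, and Rela, Ikbkb, Ikbkg, Chuk, Tnf and Il1b, and the 5 genes most like Tnfaip2 and Tnfaip3.

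The authors' processed table carries replicate numbers. Deviations of same-numbered arrays from their group means correlated at 0.18 to 0.36 for knockout M2 and knockout M0 cells and at 0.12 to 0.38 for knockout M0 and wild-type M0 cells, each pair over 0.1, the level taken here as pairing. They correlated at -0.01 to 0.15 for wild-type M2 and wild-type M0 cells and at -0.02 to 0.12 for knockout M2 and wild-type M2 cells, which fell short of it. Differently numbered arrays of different groups correlated at -0.34 to 0.13, so the level of 0.1 does not fully separate same-numbered from other pairs. The main model has no block. The intensity columns carry no replicate number, so the block was fitted on the authors' values, to all 6 contrasts, as an alternative. Up to 25 alternatives were run for a result, among them another normalization, offset, filter or probe rule, the authors' values with and without the replicate block, and leaving out each array.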

Additional observations from a re-analysis of the deposited data

How the results depend on the processing

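Of 1142 values of members recomputed under the alternatives, 1108 kept their side of the threshold, 25 lost the call and 9 gained one. The sign turned in 30 of the values, 0 of them past the threshold in the main setting or the alternative. Where no value is given for a setting, the count stayed within 1.5 times.

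Members past the threshold numbered 4 for IL-4 in knockout cells, 4 for IL-4 in wild-type cells and 2 for genotype in M2 cells. A filter of detection p under 0.01 on all 12 arrays, which of the members kept Icam1 alone, left 1, 1 and 0 of these. For genotype averaged over M0 and M2 it gave 1 in place of 2. That 1 was Icam1 (-0.25, limma, adjusted p = 0.044), which did not pass in the main fit, while Tnfaip2 and Nfkbie were filtered out. Median scaling left 2 for IL-4 in knockout cells (Tnfaip3 and Icam1 were lost) and 1 for genotype in M2 cells. No further background correction, no filter on dim probes, and leaving out the 3 arrays of lowest detected share each left 1 in M2 cells, Tnfaip2, and the last left 1 for the averaged genotype difference. The difference of responses had 1 member instead of 0, Tnfaip2, with cyclic loess and with the mean of the kept probes. Leaving out 1 array gave 3 to 4 members for IL-4 in knockout cells and 3 to 4 in wild-type cells, 0 for genotype in M0 cells, 1 to 2 in M2 cells, 0 to 1 for the difference of responses and 2 for the average.

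Over all genes, median scaling gave 751 against 1417 for IL-4 in knockout cells, 469 against 1054 in wild-type cells, 24 against 45 for genotype in M0 cells, 47 against 134 in M2 cells, 92 against 213 for the average and 1 (0 higher) against 5 (1 higher) for the difference of responses. Leaving out the 3 arrays of lowest detected share gave 21 in M0 cells, 51 in M2 cells, 103 for the average and 0 for the difference of responses. A fit of only the 2 groups gave 14 in M0 cells and 45 in M2 cells, and the strict filter gave 212 in M2 cells. An offset of 50 and the mean of the kept probes each gave 8 for the difference of responses. Leaving out 1 array gave 1069 to 1459 for IL-4 in knockout cells, 687 (without wild-type M2 array b) to 1067 in wild-type cells, 17 to 42 for genotype in M0 cells, 47 to 113 in M2 cells, 133 (without wild-type M2 array a) to 168 for the average and 0 to 8 for the difference of responses. In M0 cells there were 23, 17 and 18 without knockout M0 arrays a, b and c, and 29 and 24 without wild-type M0 arrays a and c. In M2 cells there were 72, 79 and 62 without knockout M2 arrays a, b and c, and 47, 52 and 71 without wild-type M2 arrays a, b and c. The cause was not tested.

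The authors' processed values gave 5 members for IL-4 in knockout cells both with the replicate block and without it, the added one being Nfkbiz (-0.61, adjusted p = 0.0242 with the block and 0.0499 without). For genotype in M2 cells they gave 212 genes with the block and 171 without. On these values the block changed no call of a member. The low signal limits Nfkbia, Nfkbiz, Rel and Relb, which were undetected on 5 to 12 of the 12 arrays.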
